A study of Mus musculus with 10 samples.

Results

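The major urinary protein (Mup) genes Mup1, Mup2, Mup3, Mup7, Mup9, Mup12, Mup15, Mup16, Mup17 and Mup21 were examined in RNA-Seq libraries from mouse liver and liver tumors. These 10 genes were picked by symbol and are 10 of the 16697 gene rows in the deposited table. The libraries came from a study that asked how an activated FOXO1 changes gene expression in hepatocellular carcinoma (HCC) driven by c-MYC. The normal liver group (NL, n = 4) was wild-type mouse liver. The c-MYC group (n = 3) was tumor tissue from wild-type mice whose hepatocytes had received a c-MYC plasmid and the empty pT3-EF1α vector by hydrodynamic tail vein injection. The c-MYC/FOXO1AAA group (n = 3) was tumor tissue raised with c-MYC and FOXO1AAA, a MYC-tagged, constitutively active FOXO1 that AKT can no longer switch off. In this model the EF1α promoter drives the injected genes, which the Sleeping Beauty transposase inserts into the hepatocyte genome, and each tumor sample also holds uninjected cells of the liver. All samples carry the strain label C57BL/6, whereas the study itself names FVB/N both for the injected mice and for the normal livers, and the design text of the series speaks of tumors with MCL1 beside c-MYC, which the sample labels do not name. The sex, the age and the time after injection of each sample are not given in the labels, and both sexes were used according to the study's methods. Nothing in the labels says that the libraries of a group came from separate mice, so p-values measure only the spread between these samples.

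Major urinary proteins are small secreted lipocalins. Hepatocytes make them, the kidney passes them into the urine, and there their barrel-shaped pocket carries volatile pheromones and releases them slowly from scent marks. In mouse liver the genes are known for very high transcription, for dependence on pulsed growth hormone acting through STAT5, and for higher expression in males. The family arose by repeated duplication, so most members are nearly identical in sequence.

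All 10 genes lie on chromosome 4 on the minus strand in GRCm38, inside a cluster that runs from 59956804 to 62150863, or 2194 kb (GENCODE release M21). The central group of near copies holds Mup7 (60066469 to 60070475), Mup2 (60135932 to 60154289), Mup9 (60418046 to 60421952), Mup1 (60498012 to 60501960) and Mup12 (60737383 to 60741326). It continues with Mup15 (61435790 to 61439743), Mup16 (61515592 to 61519531) and Mup17 (61591929 to 61595871). Mup3 (62083476 to 62087342) and Mup21 (62147932 to 62150863) lie at the far end of the cluster. Each gene has 6 coding exons. The coding sequence is 540 bases in the 8 central genes, 552 in Mup3 and 543 in Mup21.

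How alike the members are bears on how far their single values can be read. Below are 60 coding bases of each member, 5′ to 3′ on the coding strand, from the part of the alignment where the members differ most. They cross the junction of coding exons 2 and 3, and capitals mark bases that differ from the most common base at that column.
Mup9 and Mup16 (coding bases 212 to 271): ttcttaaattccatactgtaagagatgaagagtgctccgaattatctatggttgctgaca
Mup7 and Mup17: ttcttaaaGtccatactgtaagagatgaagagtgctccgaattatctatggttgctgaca
Mup1, Mup2, Mup12 and Mup15: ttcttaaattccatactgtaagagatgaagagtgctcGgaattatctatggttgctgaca
Mup3 (coding bases 224 to 283): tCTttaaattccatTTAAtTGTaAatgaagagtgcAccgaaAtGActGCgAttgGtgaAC
Mup21 (coding bases 215 to 274): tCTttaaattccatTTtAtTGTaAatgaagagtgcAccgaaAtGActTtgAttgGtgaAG
On the genome these bases lie, for example, within chr4:60739838-60740666 in Mup12, chr4:60068934-60069751 in Mup7, chr4:62085992-62086818 in Mup3 and chr4:62149387-62150213 in Mup21, with an intron between the exons. Mup3 differed from the most common base at 20 of the 60 positions and Mup21 at 18, against 0 or 1 in the 8 central genes. Over the whole coding sequence the 8 central genes were 98.5% to 99.6% identical to each other. Mup3 and Mup21 were 94.7% identical to each other and 82.1% to 84.5% identical to the 8. Of the 100-base stretches in each transcript, 97.1% in Mup3 and 95.5% in Mup21 occurred in no other annotated Mup gene. In the 8 central genes that share ran from 2.7% (Mup2 and Mup15) to 40.6% (Mup17). A read from the 8 can therefore fit several genes, and how the authors assigned such reads is not given in the sources used here. Single values are reported for all 10 genes together with their sum, and Mup3 and Mup21 are the members whose own values depend least on this choice.

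The table held 13123719 to 20547746 reads per library in listed genes. The authors' scaling set the effective library size at 0.649 to 0.684 times the reads in NL, 1.26 to 1.29 times in c-MYC and 1.45 to 1.5 times in c-MYC/FOXO1AAA, so levels in NL are scaled up relative to the tumors. The scaling bears on the size of every difference given here, and the direction of the 10 genes was the same under all scalings tried. Foxo1, which the FOXO1AAA plasmid encodes, was 7.12 ± 0.532 FPKM in the NL libraries (SD, n = 4), 5.62 ± 0.721 in those of c-MYC (SD, n = 3) and 83.1 ± 12.8 with FOXO1AAA (SD, n = 3). The mouse Myc gene was lower in the tumors (0.704 FPKM in c-MYC and 0.916 FPKM in c-MYC/FOXO1AAA) than in NL (11.1 FPKM). The species of the injected c-MYC is not given in the sources used here, so this row checks no label. Reads of Y-linked genes were present in all 10 libraries.

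Normal liver held Mup transcripts at very high levels, and the 10 genes together took 2.62% to 3.03% of the reads. Levels are given in FPKM, fragments per kilobase of transcript and unit of scaled library size, rebuilt from the deposited values without the small count that the authors had added, so that 0 means 0 reads. Mup12 was 18748, 23147, 11979 and 16318 FPKM in NL 1 to 4, a mean of 17548 ± 4666 (SD, n = 4). Mup3 was 10736, 11526, 11540 and 11021 FPKM, a mean of 11206 ± 395. Mup7 was 9600, 8981, 10378 and 7395 FPKM, a mean of 9089 ± 1266. These 3 genes stood above the other 7 in every NL library. Mup15 was 1139, 920, 1916 and 2886 FPKM, a mean of 1715 ± 889. Mup21 was 1610, 1482, 1463 and 1498 FPKM, a mean of 1513 ± 66. The values of Mup15 straddled those of Mup21, and the order of this pair changed between libraries. The remaining genes were lower, with means of 744 ± 580 FPKM for Mup17, 618 ± 272 for Mup9, 595 ± 647 for Mup16, 555 ± 326 for Mup1 and 153 ± 32.7 for Mup2. Mup17 reached 1572 FPKM in NL 3 against 267 to 697 in the other NL libraries, and Mup16 reached 1565 FPKM in NL 3 against 260 to 287. Mup1 was 133 FPKM in NL 1 and 506 to 907 elsewhere, Mup9 ran from 374 to 1008 FPKM and Mup2 from 130 to 201 FPKM. Neighbors in this order that did not differ by more than the larger of their SDs were Mup15 and Mup21, Mup17 and Mup9, Mup9 and Mup16, and Mup16 and Mup1.

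**Figure D1:**
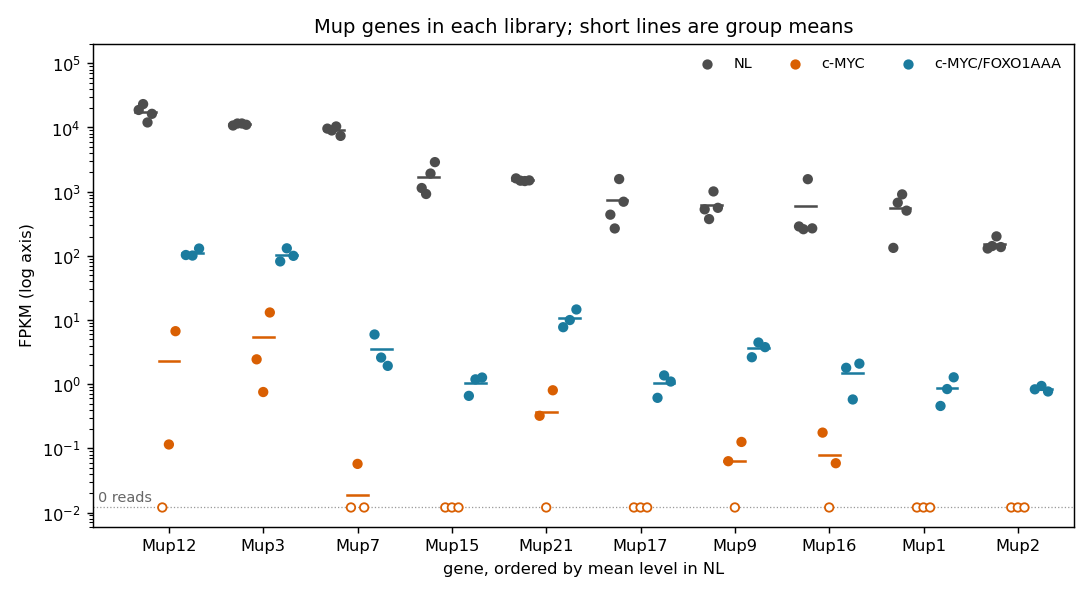
Level of each of the 10 Mup genes in FPKM (log axis) in every library, with genes ordered by their mean in NL, 1 point per library, short lines for group means and open circles at the dotted line for libraries with 0 reads. For each gene the 4 NL points lie highest, the 3 c-MYC/FOXO1AAA points in the middle and the 3 c-MYC points lowest, with 0 reads of Mup1, Mup2, Mup15 and Mup17 in c-MYC.

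The spread between NL libraries was small for Mup3 and Mup21, the members with the most sequence of their own, and wide for most of the others. The coefficient of variation (CV, the SD as a percentage of the mean) over the 4 NL libraries was 3.53% for Mup3 and 4.36% for Mup21. It was 13.9% for Mup7, 21.4% for Mup2, 26.6% for Mup12, 44.1% for Mup9, 51.9% for Mup15, 58.7% for Mup1, 78% for Mup17 and 109% for Mup16. Among these near copies, more sequence of their own did not go with a smaller CV. Mup17 had the most 100-base stretches of its own (40.6%) and a CV of 78%, against 2.7% and 21.4% for Mup2. Among the 1330 genes whose NL mean reached 100 FPKM the median CV was 7.02%, and 0.902% of them had a CV above 50%, as 4 of the 10 Mup genes did. The sum over the 10 genes was much steadier than most of its parts, at 43353, 47772, 42529 and 41285 FPKM (CV 6.45%). The sum over all 28 Mup family rows in the table had a CV of 2.35%. Whether the spread of single genes came from the livers or from the assignment of shared reads was not tested.

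**Figure D2:**
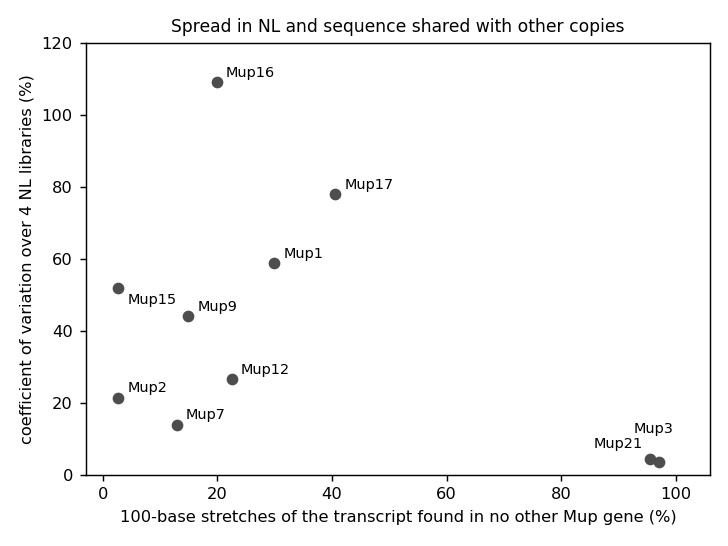
Coefficient of variation over the 4 NL libraries (%) against the share of 100-base stretches of each transcript that occur in no other annotated Mup gene (%), 1 point per gene. Mup3 and Mup21 sit at the right with CVs of 3.53% and 4.36%, and the 8 near copies sit at the left between 13.9% (Mup7) and 109% (Mup16).

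The first question was how c-MYC tumors differ from normal liver. Transcripts of the Mup genes were nearly absent from c-MYC tumors. Mup3 was 2.44, 0.755 and 13.1 FPKM in c-MYC 1 to 3, from 44, 14 and 237 reads, and its mean of 5.43 ± 6.7 (SD, n = 3) was 0.0485% of the NL mean (95% exact Poisson interval 0.0428% to 0.054%, counting error only). Mup12 was 0, 0.115 and 6.7 FPKM, from 0, 2 and 114 reads, or 0.0129% of NL. Mup21 was 0.322, 0 and 0.804 FPKM, from 4, 0 and 10 reads, or 0.0248% of NL (0.0134% to 0.0413%). Every c-MYC value of these 3 genes lay more than 100-fold below the lowest NL value. Mup7, the third most abundant member in NL, had 1 read in c-MYC 2 and 0 in the other c-MYC libraries, against 332242 reads over the NL libraries. Mup9 had 3 reads and Mup16 had 4 reads over the c-MYC libraries, and Mup1, Mup2, Mup15 and Mup17 had 0.

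From the reads summed over each group, Mup3 was 2074-fold higher in NL than in c-MYC (95% interval 1850 to 2333), Mup12 7790-fold (6495 to 9428) and Mup21 4075-fold (2429 to 7455). With the few c-MYC reads of the others, the ratio was 470790 for Mup7 (84497 to 18595251, 1 read), 9897 for Mup9 (3386 to 47995, 3 reads) and 7653 for Mup16 (2989 to 28090, 4 reads). Against 0 reads only a lower bound can be set, taking 3 reads over the c-MYC group. Mup15 was then at least 28777-fold higher in NL, Mup17 at least 12681-fold, Mup1 at least 7988-fold and Mup2 at least 2615-fold. PCR duplicates are not separate molecules, so all such intervals and bounds cover counting error alone.

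In the fit across all 14017 genes tested (limma treat for a change above 1.5-fold, Benjamini-Hochberg adjusted p under 0.05), all 10 Mup genes were lower in c-MYC than in NL, where 23.6% of all tested genes were called lower and 24.5% higher. All 10 had passed the filter of at least 1 FPKM in at least 3 libraries, with all 4 NL libraries at that level or above. Mup3, Mup7, Mup9, Mup12 and Mup21 also reached it in all 3 c-MYC/FOXO1AAA libraries, and the other 5 passed only through NL. A lower call against NL was therefore close to fixed for Mup1, Mup2, Mup15, Mup16 and Mup17. Log2 fold changes ran from -15.93 for Mup7 (SE 0.32, limma adjusted p 2.71e-10) to -10.2 for Mup2 (SE 0.17, limma adjusted p 7.16e-11). The largest adjusted p was that of Mup12 (log2 fold change -14.81, SE 1.07, limma adjusted p 1.08e-06). The median over the 10 was -11.78, against 0.08 over all genes tested, and -12.39 with the 4 genes at 0 reads set to their bounds. Fitted changes of genes with few or no c-MYC reads depend on the count that the authors added before taking logs and are no bounds. Ordered from the lowest log2 fold change, Mup7, Mup12 and Mup15 took ranks 1 to 3 of 14017, 7 of the 10 genes were within the first 10 and all 10 within the first 50. In bulk tissue, fewer cells that make a transcript and less of it per cell cannot be told apart.

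What remained of Mup expression in the c-MYC group came mainly from a single library. Of the 433 reads of the 10 genes over the 3 c-MYC libraries, 364 (84.1%) were in c-MYC 3, as were 98.3% of the Mup12 reads and 80.3% of the Mup3 reads. Without c-MYC 3 the mean was 0.0573 FPKM for Mup12 in place of 2.27, and 1.6 FPKM for Mup3 in place of 5.43. Without that library the fold from summed reads between NL and c-MYC was 302457 for Mup12 (95% interval 83728 to 2497486), 9548 for Mup21 (3729 to 35045) and 7062 for Mup3 (5463 to 9300).

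How tumors with added FOXO1AAA differ from those with c-MYC alone was the second question. All 10 Mup genes were higher in c-MYC/FOXO1AAA tumors than in c-MYC, from levels at or near 0 to levels that were low but well counted. Mup12 was 103, 101 and 130 FPKM in c-MYC/FOXO1AAA 1 to 3 (112 ± 15.9, SD, n = 3), from 2359, 2807 and 2359 reads. Mup3 was 81.9, 131 and 100 FPKM (105 ± 25.1), from 1985, 3863 and 1934 reads. Mup21 was 7.73, 9.99 and 14.6 FPKM (10.8 ± 3.51), from 129, 202 and 194 reads. The lowest c-MYC/FOXO1AAA library of each of these 3 genes lay above the highest c-MYC library, c-MYC 3 included. Mup7 was 5.95, 2.6 and 1.93 FPKM (3.49 ± 2.16), and Mup9 was 2.63, 4.46 and 3.78 FPKM (3.62 ± 0.923). The other 5 genes had means from 0.847 FPKM ± 0.0855 (Mup2) to 1.49 FPKM ± 0.802 (Mup16), from 49 to 95 reads each over the group. Within c-MYC/FOXO1AAA the levels fell into steps: Mup12 and Mup3 did not differ beyond their SDs, Mup3 exceeded Mup21 and Mup21 exceeded Mup9, and no pair of neighbors below Mup9 differed by more than the larger SD.

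From summed reads Mup12 was 48.6-fold higher in c-MYC/FOXO1AAA tumors than in c-MYC (95% interval 40.5 to 58.9), Mup21 28.1-fold (16.6 to 51.8) and Mup3 19.8-fold (17.6 to 22.3). Without c-MYC 3 these folds were 1888 for Mup12 (522 to 15592, 2 c-MYC reads), 65.9 for Mup21 (25.6 to 243) and 67.3 for Mup3 (52 to 88.7). The ratio was 182 for Mup7 (32.4 to 7224), 58.7 for Mup9 (19.8 to 287) and 17.8 for Mup16 (6.73 to 66.7). Lower bounds for the genes with 0 c-MYC reads were 18-fold for Mup17, 17.7-fold for Mup15, 14.7-fold for Mup2 and 12.2-fold for Mup1. In limma treat over all genes the 10 were called higher, where 15.9% of all tested genes were called higher and 12.7% lower. The log2 fold change was 7.54 for Mup12 (SE 1.14, limma adjusted p 0.000489), 5.05 for Mup3 (SE 0.73, limma adjusted p 0.00045) and 4.59 for Mup21 (SE 0.49, limma adjusted p 5.85e-05). It was 4.49 for Mup7 (SE 0.34, limma adjusted p 5.07e-06) and lay between 2.68 (Mup1) and 4.25 (Mup9) for the rest. Over the 10 genes the median was 3.7, against 0.03 over all genes tested, and 4.21 with the 4 genes at 0 reads set to their bounds. By this measure Mup12 ranked 60 of 14017 from the highest, and the other 9 ranked 326 to 1086.

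The weakest calls were those of Mup16 (log2 fold change 2.9, SE 0.7, limma adjusted p 0.0167) and Mup1 (2.68, SE 0.6, limma adjusted p 0.0125). Mup16 lost its call without c-MYC 2 (limma adjusted p 0.0614), without c-MYC/FOXO1AAA 1 (0.0628) and without c-MYC/FOXO1AAA 3 (0.0605). With a pseudocount of 1 added to FPKM before the log, 5 of the 10 genes were called, and with voom on the rebuilt reads 6 of the 10. Mup3, Mup7, Mup9, Mup12 and Mup21 were called under both.

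**Figure D3:**
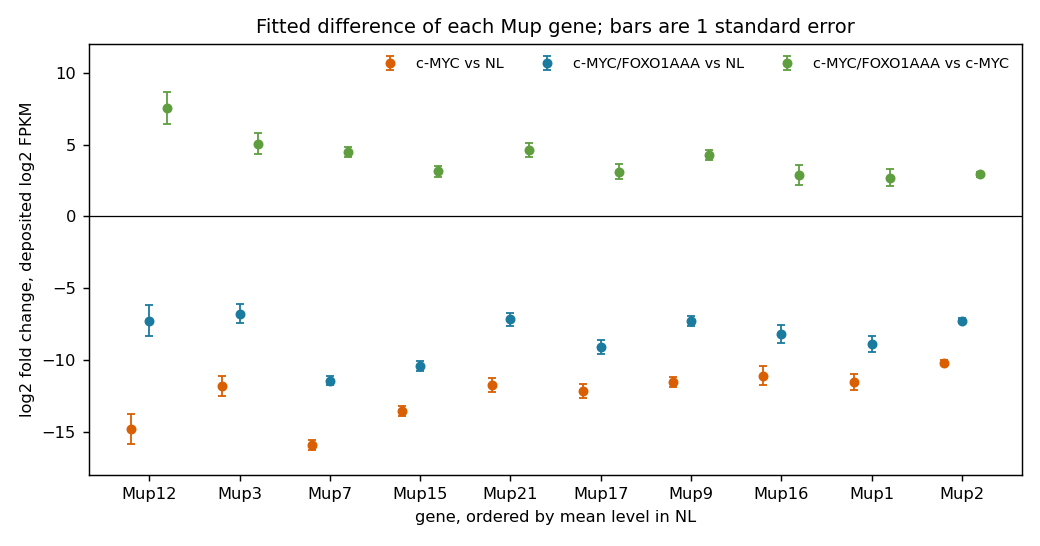
Log2 fold change of each Mup gene on the deposited log2 FPKM scale in the 3 comparisons, with bars of 1 standard error. Values for c-MYC vs NL lie between -15.93 and -10.2, those for c-MYC/FOXO1AAA vs NL between -11.44 and -6.77, and those for c-MYC/FOXO1AAA vs c-MYC between 2.68 and 7.54.

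Against normal liver the Mup genes of c-MYC/FOXO1AAA tumors had group means under 1% of NL, and the shares differed between genes. Mup3 was at 0.731%, 1.17% and 0.894% of its NL mean in the 3 libraries (0.933% of NL for the group mean), and Mup21 at 0.511%, 0.66% and 0.966% (0.712%). Mup12 was at 0.636% of NL, Mup9 at 0.586% and Mup2 at 0.555%. These 5 genes held the highest shares. Mup16 was at 0.25% of NL, Mup1 at 0.155%, Mup17 at 0.138% and Mup15 at 0.0606%. Mup7 was at 0.0655%, 0.0286% and 0.0212% of its NL mean (0.0384% for the group), the lowest share of the 10. From summed reads Mup7 was 2585-fold higher in NL (95% interval 2279 to 2943), Mup15 1622-fold (1286 to 2077), Mup12 160-fold (157 to 164) and Mup3 105-fold (103 to 107). These intervals cover counting error alone and not the wider spread between libraries. All 10 were called lower (limma treat), where 26.6% of all tested genes were called lower and 31.2% higher. For Mup1, Mup2, Mup15, Mup16 and Mup17, which had passed the filter only through NL, this call was close to fixed. Log2 fold changes ran from -11.44 for Mup7 (SE 0.32, limma adjusted p 1.34e-09) to -6.77 for Mup3 (SE 0.69, limma adjusted p 1.05e-05), with a median of -7.74 against 0.21 over all genes tested. This comparison shares its NL libraries with the first and its c-MYC/FOXO1AAA libraries with the second, so the 3 sets of values are not independent.

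Summed over the 10 genes, Mup transcripts were 43735 FPKM ± 2822 (SD, n = 4) in NL. The sum was 3, 0.927 and 20.8 FPKM in c-MYC 1 to 3 (8.24 ± 10.9) and 206, 255 and 257 FPKM in c-MYC/FOXO1AAA 1 to 3 (239 ± 28.9). These are 0.0188% and 0.547% of the NL mean, and the 3 groups did not overlap. Without c-MYC 3 the c-MYC mean was 1.96 FPKM, or 0.00449% of NL. As a share of all reads, which needs no scaling between libraries, the 10 genes took 2.62% to 3.03% in NL, 0.000113% to 0.00257% in c-MYC and 0.029% to 0.035% in c-MYC/FOXO1AAA. On the log2 scale the ratio of the mean sums was -12.37 for c-MYC vs NL, 4.86 for c-MYC/FOXO1AAA vs c-MYC and -7.51 for c-MYC/FOXO1AAA vs NL.

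Mup3 and Mup21 alone, the members with the most sequence of their own, summed to 12719 FPKM ± 338 in NL, 5.81 ± 7.09 in c-MYC and 115 ± 25.9 in c-MYC/FOXO1AAA. The 8 near copies summed to 31016 FPKM ± 2666, 2.43 ± 3.86 and 124 ± 15.8. In c-MYC/FOXO1AAA the first sum was at 0.906% of its NL mean and the second at 0.4%. The order of the 3 groups was the same for both.

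Albumin (Alb), the main plasma protein made by hepatocytes, was as abundant in NL as the summed Mup genes but was retained in tumors to a larger share. Alb was 45210, 44599, 39557 and 43306 FPKM in NL, 512, 1435 and 562 FPKM in c-MYC and 458, 910 and 554 FPKM in c-MYC/FOXO1AAA. The group means were 43168 ± 2535, 836 ± 519 and 641 ± 238 FPKM. The tumor groups overlapped for Alb and did not for the Mup sum, and Alb did not pass the test between them (log2 fold change -0.28, limma adjusted p 1). Per unit of Alb, the Mup sum was 0.953 to 1.08 in the NL libraries, 0.00586, 0.000646 and 0.037 in c-MYC 1 to 3 and 0.449, 0.28 and 0.464 in c-MYC/FOXO1AAA 1 to 3. The ratio, which does not depend on the scaling of libraries, was higher in every c-MYC/FOXO1AAA library than in every c-MYC library and lower than in every NL library.

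**Figure D4:**
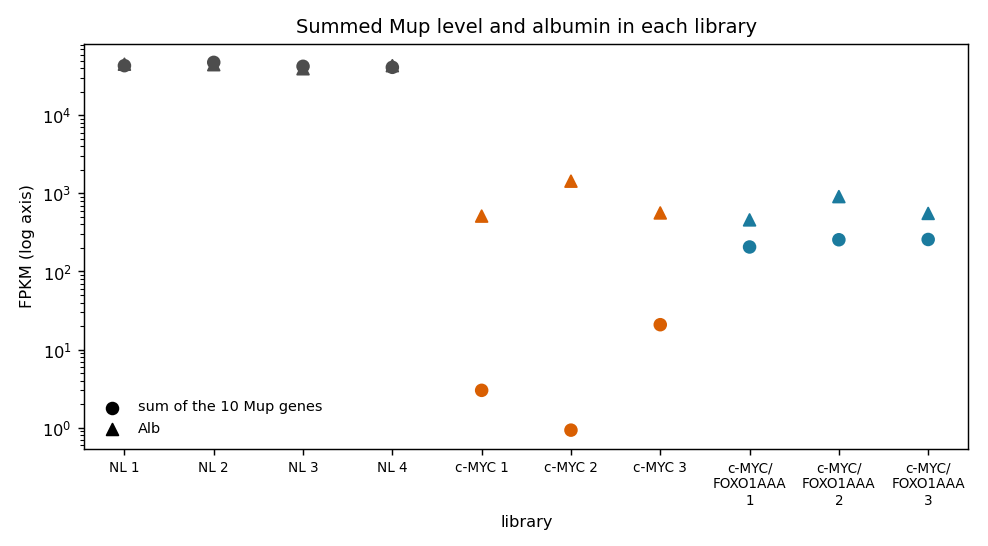
Summed FPKM of the 10 Mup genes (circles) and FPKM of Alb (triangles) in each of the 10 libraries (log axis), colored by group. The 2 symbols nearly coincide in NL at about 43735 and 43168 FPKM, and in the tumors the Mup sum lies below Alb, furthest in c-MYC 2 (0.927 against 1435 FPKM).

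The make-up of the sum also differed between groups. In NL Mup12 made up 39.8% ± 8.6 of the summed FPKM (SD, n = 4), Mup3 25.7% ± 1.46 and Mup7 20.8% ± 3.01. In c-MYC/FOXO1AAA Mup12 made up 46.9% ± 6.1 (SD, n = 3), Mup3 43.4% ± 7.04 and Mup7 1.55% ± 1.17. The Mup7 share was 17.9% to 24.4% in NL and 0.749% to 2.89% in c-MYC/FOXO1AAA, without overlap. Mup15 went from 4.01% to 0.427% and Mup21 from 3.47% to 4.45%. In c-MYC the few reads were mostly those of Mup3, at 75.3% ± 10.6 of the sum, and c-MYC 1 and c-MYC 2 together rested on 69 reads.

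**Figure D5:**
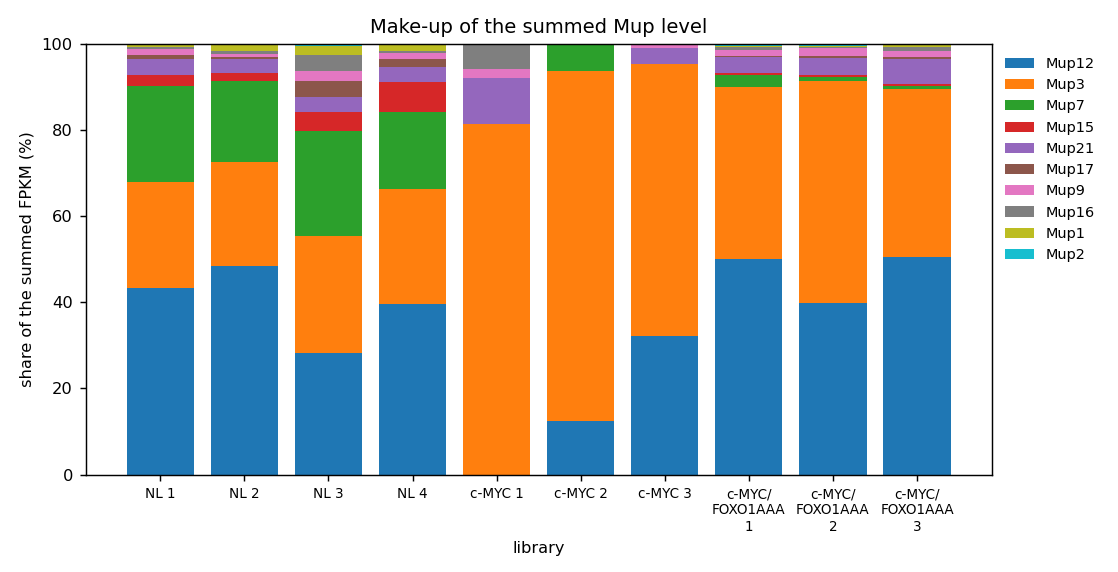
Share of each of the 10 Mup genes in their summed FPKM (%), 1 stacked bar per library. Mup7 makes up 17.9% to 24.4% of the NL bars and at most 2.89% of the c-MYC/FOXO1AAA bars, and Mup3 makes up most of each c-MYC bar.

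The other 18 Mup family rows of the table, 8 of them annotated pseudogenes, were looked at beside the 10, and the genes named here were chosen after their values were seen. Of these rows, 16 were tested. All 16 were lower in c-MYC than in NL, where 23.6% of all tested genes were called lower. In c-MYC/FOXO1AAA tumors 15 were lower than in NL, against 26.6% of all tested genes. Mup-ps19 was the exception (log2 fold change -2.45, SE 1.02, limma adjusted p 0.0903). All but Mup20 and Mup-ps19 had passed the filter only through NL, so a lower call was close to fixed for them. Between the tumors only Mup20 passed the test (log2 fold change 4.38, SE 0.71, limma adjusted p 0.00112). Mup20 encodes darcin, the male urinary pheromone protein that attracts females. Its level was 172, 156, 204 and 238 FPKM in NL, 0.881, 0.515 and 7.51 FPKM in c-MYC and 28.8, 34.7 and 43.8 FPKM in c-MYC/FOXO1AAA. At 18.6% of the NL mean in c-MYC/FOXO1AAA, Mup20 kept a larger share than any of the 10 genes, of which Mup3 had the highest at 0.933%. Other family members differed widely between the NL libraries. Mup19 was 3634, 12.7, 42.3 and 4143 FPKM in NL 1 to 4, and Gm21320, which RefSeq lists as a synonym of Mup22, was 185, 1668, 4901 and 1774 FPKM. NL 3, the library with the highest Mup16 and Mup17, was also highest for Gm21320, and NL 1 and NL 4 were highest for Mup19.

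Promoter sequence was examined because the 10 genes moved together. A RefSeq window from 250 bases before to 50 bases after the transcription start (GRCm38.p6) was given for 7 of the 10 genes, Mup2, Mup3, Mup7, Mup9, Mup15, Mup17 and Mup21. The letters TTCNNNGAA (STAT5-type), GTAAACA (FOXO-type), CACGTG (E-box) and TATAAA were searched on both strands. None of these 4 motifs was found in the 7 windows, while 8.3%, 3.65%, 7.15% and 13.62% of all 32851 windows held them. A match is only a match of letters, and no match covers only this window. The letters TATATAA, looked for after the windows had been read, were found in 6 of the 7 windows (not in that of Mup7) and in 3.24% of all windows. The 60 bases that end in it are shown for 4 genes, 5′ to 3′ on the strand of the gene, with TATATAA in capitals.
Mup17 (chr4:61595851-61595910, minus strand): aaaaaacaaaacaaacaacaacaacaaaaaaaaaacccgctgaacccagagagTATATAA
Mup9 (chr4:60421977-60422036, minus strand): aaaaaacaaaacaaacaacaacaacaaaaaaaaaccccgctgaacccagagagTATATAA
Mup3 (chr4:62087322-62087381, minus strand): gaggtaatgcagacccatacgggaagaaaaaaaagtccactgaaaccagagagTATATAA
Mup21 (chr4:62150843-62150902, minus strand): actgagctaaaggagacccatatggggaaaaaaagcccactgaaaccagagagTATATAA
Mup9 matched Mup17 at 59 of the 60 bases, Mup3 at 37 and Mup21 at 39. The GENCODE transcripts of Mup1, Mup2, Mup7, Mup12, Mup15, Mup16, Mup17 and Mup21 begin upstream of it and hold TATATAA at base 15, so the annotated starts differ between the sources.

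Genes of growth hormone and STAT5 signalling were counted next, since this pathway is known to drive Mup transcription. Counts of this and the following lists stand against 24.5% of all tested genes called higher and 23.6% lower in c-MYC vs NL, and against 15.9% higher and 12.7% lower between the tumors. Of the 21 tested, 0 were higher and 8 lower in c-MYC than in NL (median log2 fold change -0.77, against 0.08 over all genes), and 5 rose and 4 fell with FOXO1AAA relative to c-MYC alone (median -0.13, against 0.03). Socs2, a feedback inhibitor that STAT5 induces, rose from 3.39 FPKM ± 2.35 (SD, n = 3) to 51.7 FPKM ± 6.6 between the tumors (log2 fold change 4.07, SE 0.47, limma adjusted p 0.000109). Gab1, an adaptor protein of receptor signalling, rose from 5.73 to 37.4 FPKM. Cish, another STAT5-induced inhibitor, fell from 4.36 to 0.802 FPKM, and Stat5a fell from 3.35 to 1.45 FPKM (limma adjusted p 0.00711 and 0.0312). Ghr, the growth hormone receptor, and Stat5b were chosen after their values were seen. Ghr was 240 FPKM in NL, 24.5 in c-MYC and 18.4 in c-MYC/FOXO1AAA, lower in c-MYC than in NL (log2 fold change -3.3, limma adjusted p 2.07e-08) and not past the threshold between the tumors (-0.4, limma adjusted p 1). Stat5b was 13.6, 16 and 14.7 FPKM and passed no test. Igf1, the growth factor that growth hormone induces in liver, fell from 611 to 7.39 FPKM in c-MYC, and the prolactin receptor gene Prlr from 45.7 to 0.095 FPKM.

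Like the Mup genes, most other male-biased liver genes were lower in the tumors. In c-MYC 23 of 26 tested were lower than in NL and 0 higher (median log2 fold change -6.83). In c-MYC/FOXO1AAA 26 of 26 were lower than in NL (median -5.56), against 26.6% of all tested genes and a median of 0.21. Between the tumors 11 were higher in c-MYC/FOXO1AAA and 4 lower (median 0.91). Hsd3b5, a male-specific steroid dehydrogenase, was 246 FPKM ± 33.8 in NL, had 0 reads in c-MYC and was 1.55 FPKM ± 0.534 in c-MYC/FOXO1AAA. Cyp7b1, an oxysterol hydroxylase, rose from 0.226 to 3.57 FPKM between the tumors, whereas the fatty acid hydroxylase gene Cyp4a12b fell from 6.13 to 0.171 FPKM. Of 19 female-biased genes tested, 3 were higher and 9 lower in c-MYC than in NL (median log2 fold change -0.44). The female-biased list was mostly reduced in tumors with FOXO1AAA as well, with 15 genes below NL and 2 above it (median -3.32). Relative to c-MYC alone, 1 female-biased gene rose with FOXO1AAA and 8 fell (median -0.66). One of the latter was Cux2, a repressor of male-biased genes in female liver, which was 1.07 FPKM in NL, 7.32 in c-MYC and 0.152 in c-MYC/FOXO1AAA. Its log2 fold change was 2.93 in c-MYC (SE 0.46, limma adjusted p 0.000679) and -5.44 between the tumors (SE 0.49, limma adjusted p 1.18e-05). Among Y-linked genes, group means in NL, c-MYC and c-MYC/FOXO1AAA were 15.7, 8.64 and 8.37 FPKM for Ddx3y, 19.1, 12.3 and 8.18 for Eif2s3y, 2.1, 2.18 and 1.4 for Kdm5d and 38.3, 39 and 29 for Uty. The lowest single value was 0.084 FPKM, of Kdm5d in a c-MYC/FOXO1AAA library. The labels do not give the sex per sample, and Ddx3y, Eif2s3y and Uty were each at 5.89 FPKM or more in every library of the 3 groups. Every library thus held RNA from male tissue.

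Among 35 liver transcription factor and hormone receptor genes tested, 1 was higher and 23 lower in c-MYC than in NL (median log2 fold change -1.75), and 9 rose and 12 fell with FOXO1AAA relative to c-MYC alone (median -0.16). Zbtb20, a repressor of the fetal liver program, rose from 0.158 to 1.33 FPKM between the tumors and the estrogen receptor gene Esr1 from 0.133 to 1.03 FPKM. Of the 12 that fell, Onecut1 went from 5.08 to 0.249 FPKM, Hnf4a from 94.3 to 7.15 and Cebpa from 136 to 27.4. These genes were chosen after their values were seen, and Cux2, given above, was also among the 12. Zhx2, known as a regulator of Mup expression in adult liver and chosen after its values were seen, was 4.21 FPKM in NL, 1.49 in c-MYC and 4.49 in c-MYC/FOXO1AAA. It was lower in c-MYC than in NL (log2 fold change -1.56, limma adjusted p 0.00348) and higher in c-MYC/FOXO1AAA tumors than in c-MYC (1.66, limma adjusted p 0.00508).

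Hepatocyte markers were mostly lower in the tumors, and fewer rose than fell between the tumor groups. Of 34 markers, 33 were lower in c-MYC than in NL, and 21 were lower and 7 higher in c-MYC/FOXO1AAA tumors than in c-MYC (median log2 fold change -2.14). Their summed level was 175572 to 190668 FPKM in NL, 13052 to 17068 in c-MYC and 2444 to 4675 in c-MYC/FOXO1AAA. Car3, a carbonic anhydrase, was among the 7 and went from 2.34 to 23.9 FPKM, and Pck1, an enzyme of gluconeogenesis, from 0.939 to 7.97 FPKM. The urea cycle gene Ass1 fell from 604 to 32.8 FPKM and the fibrinogen gene Fga from 785 to 66 FPKM. Of 14 other lipocalin and lipid-binding protein genes tested, 2 were higher and 8 lower in c-MYC than in NL (median log2 fold change -2.4), and 5 rose and 5 fell with FOXO1AAA relative to c-MYC alone (median -0.08). Orm1, an acute phase lipocalin, fell from 1209 to 1.87 FPKM in c-MYC. Apod, a lipid-binding apolipoprotein of this family, had 0 reads in NL and c-MYC and 4.75 FPKM ± 2.87 in c-MYC/FOXO1AAA. The folding genes of the secretory pathway, which Mup proteins pass through, had 0 higher and 5 lower of 26 in c-MYC against NL (median log2 fold change -0.02), and 2 higher and 7 lower between the tumors (median -0.65). The protein disulfide isomerase gene P4hb fell from 516 to 165 FPKM between the tumors, while the oxidase gene Ero1lb rose from 2.58 to 15.6 FPKM.

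Markers of some other cell types also differed between the groups, in differing orders, and their part in the Mup results was not tested. The summed level of 11 stellate cell and fibroblast markers was 91.6 to 116 FPKM in NL, 15.8 to 49.9 in c-MYC and 488 to 510 in c-MYC/FOXO1AAA, where 8 of 11 were higher than in c-MYC. For 10 endothelial markers the sum was 79.7 to 98.9, 14.2 to 25.3 and 34.9 to 48.8 FPKM. Cdh5 alone, the vascular cadherin gene, went from 4.58 FPKM in c-MYC to 25.9 in c-MYC/FOXO1AAA and was the 1 of 9 tested that was called between the tumors, and the other 9 markers summed to means of 84.1, 14.6 and 15.5 FPKM. For 11 macrophage and Kupffer cell markers it was 294 to 526, 284 to 361 and 128 to 225 FPKM. Of these 11, 1 was higher and 3 lower in c-MYC than in NL, and 1 was higher and 2 lower between the tumors. Clec4f went from 208 FPKM in NL to 4.47 in c-MYC, and Cd68 from 6.93 to 34.4. The 7 listed cholangiocyte markers summed to 30.8 to 36.5, 25.9 to 44.6 and 32.5 to 40.6 FPKM, but single markers went opposite ways. Of 5 tested, 2 were higher and 1 lower in c-MYC than in NL, and 2 were higher and 2 lower between the tumors. Epcam was 1.18, 15 and 1.94 FPKM in NL, c-MYC and c-MYC/FOXO1AAA, and Spp1 was 19.6, 1.47 and 25.5 FPKM. The 5 listed lymphocyte markers summed to 3.4 to 5.21, 3.54 to 4.74 and 8.97 to 12.6 FPKM. Of the lymphocyte sum in c-MYC/FOXO1AAA, Cd79a made up 9.44 FPKM on average, and the other 4 markers summed to means of 3.88, 3.95 and 1.54 FPKM. No marker of these lists was at 0 reads over a whole group.

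Outside the family, the genes whose log2 levels followed the summed Mup level most closely over the 10 libraries were Nox4 (Pearson's r 0.999), Orm1 (0.999), Aldh1a1 (0.998), Cyp7b1 (0.997) and Adh1 (0.996). Nox4, an NADPH oxidase, was 41.2 FPKM in NL, 0.156 in c-MYC and 1.94 in c-MYC/FOXO1AAA, and Adh1, an alcohol dehydrogenase, was 1937, 7.69 and 61.6 FPKM. The points share 3 groups and their scaling, and 9.46% of the 8088 genes compared had r above 0.9, so these values only describe an order of groups that many liver genes had. Of 24 tested genes within 1 Mb of the ends of the cluster, 6 were higher and 9 lower in c-MYC than in NL, where 24.5% and 23.6% of all tested genes were. Among the same 24, 4 rose and 10 fell with FOXO1AAA relative to c-MYC alone, against 15.9% and 12.7% of all tested genes. The largest decrease among them in c-MYC was that of Gm12909, a plus-strand gene (62088288 to 62090524) whose start lies 946 bases beyond the start of Mup3. It was 13.9 FPKM ± 0.262 in NL, 0.0293 in c-MYC (1 read) and 0.23 in c-MYC/FOXO1AAA (11 reads). Ambp, which encodes the lipocalin alpha-1-microglobulin, lies within the same distance and fell from 3245 FPKM ± 236 in NL to 138 FPKM ± 83.6 in c-MYC/FOXO1AAA.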

How the data were processed

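RNA from 4 normal livers, 3 c-MYC tumors and 3 c-MYC/FOXO1AAA tumors was sequenced by the authors, who counted reads per Ensembl gene and converted the identifiers to gene symbols. The submitters' processing notes name FastQC 0.11.7 and GRCm38. The aligner, the counting program and the handling of reads that fit several genes are not given in the sources used here. The deposited table holds log2 FPKM made by the authors after adding a prior count of 2, adjusted for library size. Of its 17069 rows, 372 carry no symbol and were left out. Whole reads and gene lengths were rebuilt from the log2 values (1 length gave whole reads within 0.002 in 99.86% of 16697 genes), and levels are FPKM from these reads. On simulated reads, all genes with 1 length (16669 of 16697) were rebuilt right.

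Differences were tested on the deposited log2 FPKM with limma 3.58.1 (treat, change above 1.5-fold, trend and robust, R 4.3.3), in place of the authors' edgeR glmTreat, which needs counts. All 10 libraries entered 1 fit with a mean per group. Genes with at least 1 FPKM in at least 3 libraries (14017) were tested, 2-sided, and called at a Benjamini-Hochberg adjusted p under 0.05. On data simulated for c-MYC/FOXO1AAA vs c-MYC, 170 of 173 changed genes (98.3%) and 0 unchanged genes of 13471 tested were called. The simulation used a fixed, small spread, set fold changes and a common starting level for all groups. It did not model the wide spread of the Mup genes in c-MYC, so it does not test their calls. Intervals are 95% exact Poisson or binomial. Sums carry no test. Alternatives covered pseudocounts, filters, scalings, thresholds, fits and left-out libraries. Coding sequences were aligned with mafft 7.526.

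The members and gene lists were chosen with earlier results of these data known. Named were all 10 members, from each list up to 2 called genes with the largest fold change per direction and comparison with at least 1 FPKM in a group, of which a part is printed (1 gene and 1 motif are not reported here), the 5 genes most like the Mup sum (10 FPKM or more in a group) and the neighbors with the largest changes. Samples were grouped by their labels.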

Additional observations from a re-analysis of the deposited data

Results flagged for a closer look

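Mup16 in NL 3 stood far from the other NL libraries, at 1565 FPKM (14163 reads) against 287, 260 and 268 FPKM in NL 1, NL 2 and NL 4. Its gap to the nearest library was 0.979 of the range of the 4 libraries. It was 1 of 12 checks of the NL libraries (10 genes, their sum and their share of reads) that passed this limit, which chance passes in about 1 in 20 groups. Of the transcript of Mup16, 19.9% of 100-base stretches occur in no other Mup gene. Mup1, Mup2, Mup3, Mup7, Mup9, Mup17 and Gm21320 were also highest in NL 3, Mup3 only just (11540 FPKM against 11526 in NL 2). Mup12 and Mup21 were lowest there (11979 and 1463 FPKM). The sum over the 10 genes was 42529 FPKM in NL 3 against 41285 to 47772 FPKM in the others.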

How the results depend on the processing

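The number of the 10 Mup genes called in c-MYC vs NL and in c-MYC/FOXO1AAA vs NL was 10 in the 23 alternative fits. For Mup1, Mup2, Mup15, Mup16 and Mup17 the filter of the main fit left these calls close to fixed. In c-MYC/FOXO1AAA vs c-MYC the number was 5 with a pseudocount of 1 and 6 with voom on rebuilt reads, and at least 8 otherwise. With each library left out it was 9 to 10 in that comparison and 10 in the other 2. No fold change reversed. Calls were lost in 16 cases, all of Mup1, Mup2, Mup15, Mup16 and Mup17 in c-MYC/FOXO1AAA vs c-MYC. Mup16 lost its call with quantile normalization (limma adjusted p 0.124) and with a fold threshold of 2 (0.0549), and Mup1 with quantile normalization (0.126) and a pseudocount of 0.1 (0.051). The sum in c-MYC/FOXO1AAA vs NL had a log2 ratio of -6.42 scaled to the same FPKM total, -6.38 as a share of reads and -6.79 over Mup3 and Mup21 alone (chosen after seeing the data), against -7.51. Leaving out 1 library moved the log2 ratio of the sums between -14.44 and -11.84 (c-MYC vs NL), 4.33 and 6.93 (c-MYC/FOXO1AAA vs c-MYC) and -7.57 and -7.42 (c-MYC/FOXO1AAA vs NL), where -14.44 and 6.93 were without c-MYC 3. Scaling to the same FPKM total moved the median of all genes in c-MYC vs NL from 0.08 to 1.01 and the calls from 3435 higher and 3305 lower to 7061 and 1895. In c-MYC/FOXO1AAA vs NL they moved from 4371 and 3728 to 8129 and 2099. Replicate numbers did not pair the samples (correlations of deviations -0.04 to 0.027), and with a replicate block 10 genes were called in each comparison.

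Single values of the 8 near copies depend on an assignment of reads that is not given. In c-MYC, 4 of the 10 genes had 0 reads and Mup7, Mup9 and Mup16 had 1 to 4, so these levels rest on few reads, and the c-MYC sum rests on c-MYC 3. The labels give no time after injection for any sample.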
